A study of Rattus norvegicus with 16 samples.

Results

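Macrophage and immune marker genes were described through 6 genes, Csf1r, Mrc1, Cd163, Cd68, Ptprc and Cd74, among 14217 genes named on a rat expression array. They were found as every probe set, the group of short probes that reads a transcript, for which the array's annotation gives 1 of these symbols. That rule gave 7 of 31042 probe sets other than controls, with 1 for each gene and a second for Ptprc. Messenger RNA had been measured in the rectus extraocular muscles (EOM), which turn the eye, and in the tibialis anterior (TA) of the shin, of 4 rats. The groups EOM_synapse, EOM_fiber, TA_synapse and TA_fiber each held 4 arrays. In each group the array titles carry the numbers 15, 25, 27 and 29, and each number was taken to be a rat, which the titles do not say. The synapse groups were regions at the neuromuscular junction, and the fiber groups were regions of the same muscles away from it. No treatment was named, and strain, sex and age are not given in the sources used here. Regions were cut by laser from 10 µm sections after a stain for acetylcholinesterase had marked the junctions, with about 1000 junctions and a like amount of tissue away from them taken from a muscle. A captured region holds whatever cells lie in it, so these are bulk samples, and fewer macrophages in a region cannot be told apart from less of an RNA in each macrophage.

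Skeletal muscle holds macrophages in the connective tissue around its fibres and vessels. Csf1r encodes the receptor for the growth factors CSF1 and IL-34, on which macrophages depend to survive. Mrc1 encodes the mannose receptor CD206, and Cd163 the scavenger receptor that takes up haemoglobin bound to haptoglobin. Both proteins mark resident macrophages of many tissues. Cd68 encodes a glycoprotein of the lysosome that is abundant in phagocytes, and Ptprc encodes CD45, a tyrosine phosphatase on the surface of nearly all leukocytes. Cd74 encodes the invariant chain that accompanies MHC class II molecules to the compartment where they load peptides, so it marks antigen-presenting cells, among them only some macrophages.

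Promoter windows are shown for Csf1r, Mrc1 and Cd163, which passed the test between the fibre groups, and for Cd74, which did not. All 6 genes matched the RefSeq promoter table of build GRCr8, which gives a window of 300 bases at an annotated start of each gene, not always the first base of the gene in RefSeq's gene table. Both strands were searched for GAGGAA (the core of sites for PU.1, a transcription factor of the myeloid lineage, read as TTCCTC on the other strand), for TGACTCA (the AP-1 site, TGAGTCA on the other strand) and for CCAAT (the CCAAT box, ATTGG on the other strand). Capitals mark the matches, and no matches overlapped in these windows.
Csf1r promoter, chr18:56834129-56834428, plus strand: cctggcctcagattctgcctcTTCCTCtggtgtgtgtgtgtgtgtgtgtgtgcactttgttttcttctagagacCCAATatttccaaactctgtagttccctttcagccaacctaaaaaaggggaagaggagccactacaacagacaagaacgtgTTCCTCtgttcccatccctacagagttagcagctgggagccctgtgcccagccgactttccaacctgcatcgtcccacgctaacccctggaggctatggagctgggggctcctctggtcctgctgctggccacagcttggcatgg
Mrc1 promoter, chr17:82157475-82157774, plus strand: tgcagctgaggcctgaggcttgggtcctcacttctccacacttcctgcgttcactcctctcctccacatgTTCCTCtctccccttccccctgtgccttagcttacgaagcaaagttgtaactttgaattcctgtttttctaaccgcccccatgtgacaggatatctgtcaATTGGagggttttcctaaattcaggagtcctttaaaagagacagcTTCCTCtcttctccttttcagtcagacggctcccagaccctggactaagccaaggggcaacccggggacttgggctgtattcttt
Cd163 promoter, chr4:158770524-158770823, plus strand: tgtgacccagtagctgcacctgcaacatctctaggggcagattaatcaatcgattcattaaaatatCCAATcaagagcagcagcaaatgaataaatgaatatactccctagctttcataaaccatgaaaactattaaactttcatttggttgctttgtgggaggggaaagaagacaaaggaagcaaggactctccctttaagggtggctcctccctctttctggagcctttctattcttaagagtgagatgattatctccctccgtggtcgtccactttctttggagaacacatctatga
Cd74 promoter, chr18:56526956-56527255, plus strand: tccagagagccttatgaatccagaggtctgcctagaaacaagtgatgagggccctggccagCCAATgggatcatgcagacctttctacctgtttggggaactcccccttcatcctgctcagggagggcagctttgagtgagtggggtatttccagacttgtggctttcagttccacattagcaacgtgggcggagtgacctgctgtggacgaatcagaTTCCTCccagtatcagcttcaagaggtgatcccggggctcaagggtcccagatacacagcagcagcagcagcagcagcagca
GAGGAA was found 2 times each in the windows of Csf1r, Mrc1 and Cd68, 1 time each in those of Cd74 and Ptprc, and 0 times in that of Cd163, and 27.6% of all 33469 promoters hold it. CCAAT was found in every member's window but that of Ptprc, against 37.5% of all promoters. TGACTCA was found in the window of Cd68 alone, 2 times, against 4.63% of all promoters. Mrc1 and Cd163, whose levels correlated over the arrays, thus differed in the GAGGAA core and shared the CCAAT letters. These matches describe letters in a window and show no binding.

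The arrays had been scaled alike, with a mean of 150.1 on every array after the lowest and highest 2% of probe sets were left out, and their median intensities ran over 33.4 to 57.0. The arrays EOM_fiber 15, TA_synapse 27 and TA_fiber 25 had the highest medians. The ratio of 3' to 5' actin signal, which is high where RNA is degraded or copied short, was 5.27 to 26.9 in EOM_synapse, 8.35 to 12.0 in EOM_fiber, 13.1 to 22.9 in TA_synapse and 10.3 to 28.0 in TA_fiber. The same ratio for GAPDH was alike in the fibre groups, with 10.7 to 14.8 in EOM_fiber and 10.5 to 15.4 in TA_fiber. It was 8.34 to 12.3 in EOM_synapse and 7.84 to 19.0 in TA_synapse. The summed intensity of 9 junction markers was 12523 to 13465 in EOM_synapse and 1239 to 1760 in EOM_fiber, and 9135 to 12650 in TA_synapse and 296 to 468 in TA_fiber, so the junction captures were enriched as labelled, while EOM_fiber lay above TA_fiber. Skeletal muscle fibre genes summed to 95667 to 128401 in EOM_synapse, 195410 to 265251 in EOM_fiber, 183837 to 237637 in TA_synapse and 238948 to 386937 in TA_fiber.

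The label of the 6 genes was set against lists of other leukocytes. The tests ran on 10416 genes whose probe set was brighter than the median of the array on 4 or more arrays. Of all 14217 named genes 73.3% passed. All 6 genes passed, and so did 15 of 18 resident macrophage markers, 13 of 20 pan-macrophage markers, 11 of 19 pan-leukocyte genes and 10 of 15 genes of the CSF1 receptor list on the array, the last 3 lists at a smaller share than all genes. Among the macrophage and myeloid genes that did not pass were Itgam, Aif1, Fcgr1a, Ccr2, C1qb, Tyrobp and Irf8. Of other leukocytes, 2 of 10 T cell markers, 1 of 4 B cell markers, 0 of 5 neutrophil markers, 1 of 6 natural killer cell markers, 1 of 6 mast cell markers and 1 of 4 dendritic cell markers passed. Cd3d, Cd3e, Cd79b, Ms4a1, S100a8 and S100a9, defining genes of T cells, B cells and neutrophils, all lay below the filter, while Cd3g and Zap70 of T cells and Cd22 of B cells passed it. Mrc1 and Cd74 exceeded the array's median on all 16 arrays, whereas Csf1r did so in 4, 4, 3 and 0 arrays, Cd68 in 2, 3, 2 and 1, and Ptprc in 4, 3, 2 and 1 arrays of EOM_synapse, EOM_fiber, TA_synapse and TA_fiber. Low values of Csf1r, Cd68 and Ptprc in TA_fiber are thus close to the dim end of the array. So are the lowest of Cd68 at the junctions, down to 6.53 in EOM_synapse and 6.96 in TA_synapse. At that end the scale used, log2(intensity + 16), understates differences.

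**Figure D1:**
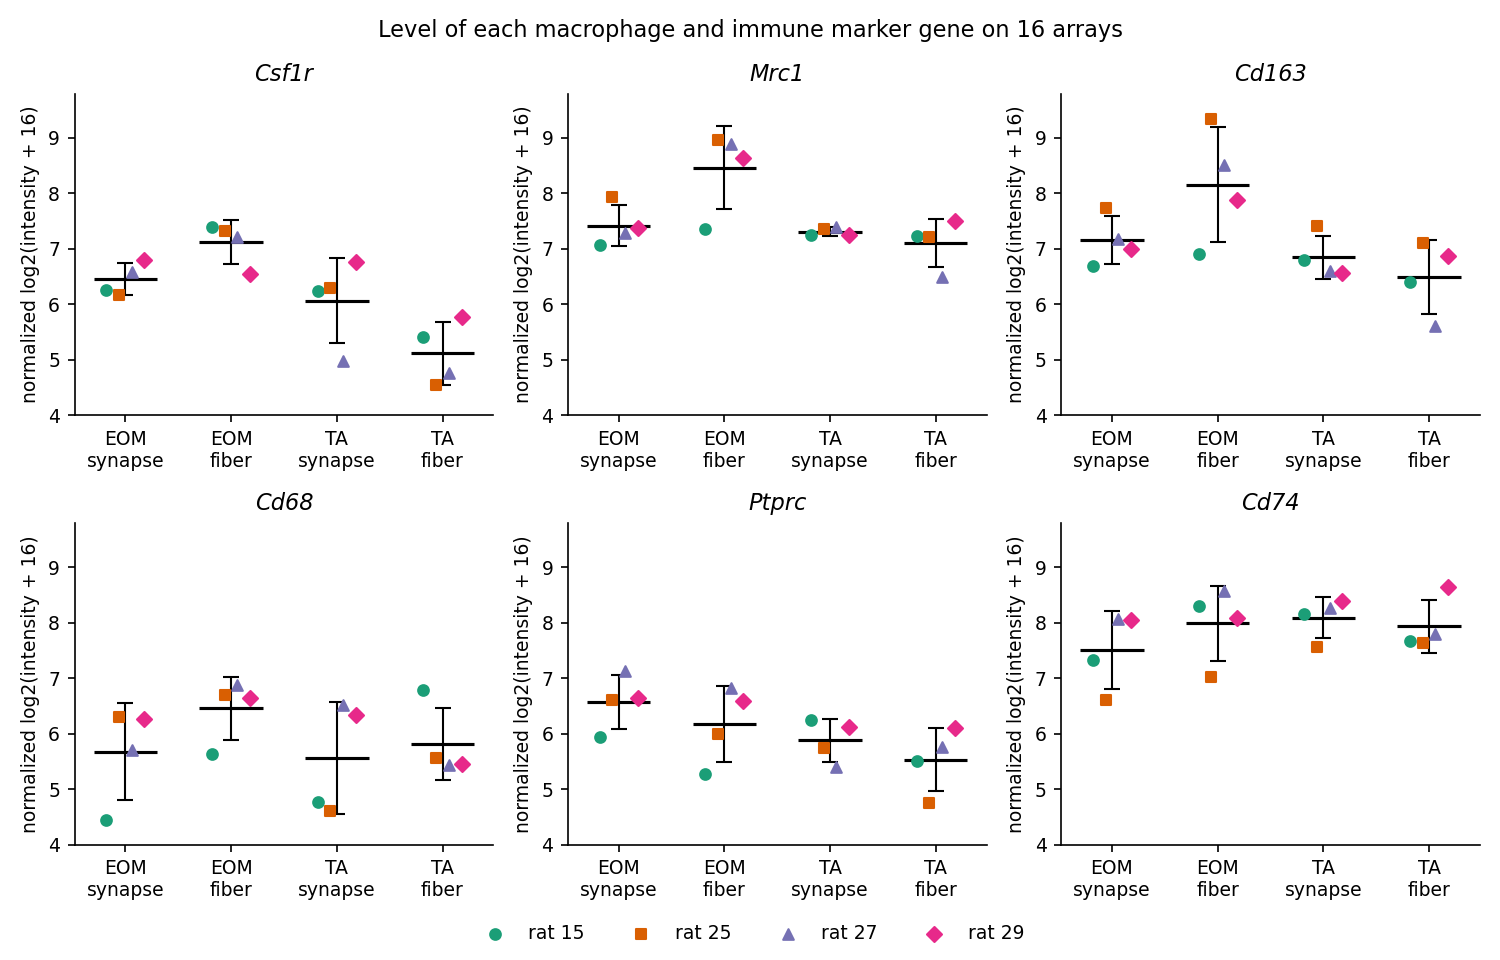
Normalized log2(intensity + 16) of the 6 genes on each of the 16 arrays, by group, with a marker for each rat, the group mean as a bar and ±1 SD as whiskers (n = 4). By group mean, Csf1r, Mrc1 and Cd163 were highest in EOM_fiber and lowest in TA_fiber, and Ptprc was highest in EOM_synapse. Between groups that share a muscle or a position, the arrays of every gene overlapped, except those of Csf1r in EOM_fiber and TA_fiber.

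Away from the junction, 3 of the 6 genes were higher in eye muscle than in leg muscle: Csf1r by 3.99-fold, Cd163 by 3.17-fold and Mrc1 by 2.55-fold, as folds on the log2(intensity + 16) scale. Cd68, Ptprc and Cd74 did not pass the test. Of all 10416 genes, 15.6% passed in either direction, 8.4% as higher and 7.15% as lower in EOM_fiber. The median difference of the 6 genes was 1.001 on the log2 scale, beside 0.03 for all genes tested. The test was limma with the rat as a block, and p-values were adjusted by the Benjamini-Hochberg method over all genes, with 0.05 as the threshold.

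Csf1r had deposited intensities of 160.0, 153, 134 and 79.4 in EOM_fiber (rats 15, 25, 27 and 29), against 25.8, 8.06, 8.63 and 29.8 in TA_fiber. Every EOM_fiber array lay above every TA_fiber array. The log2 difference was 1.996 ± 0.35 (SE, limma, n = 4 each, adjusted p = 0.0016), positive in 4 of 4 rats and smallest in rat 29 (0.77). Under all alternatives it stayed past the threshold, between 1.16 with a pseudocount of 64 and 2.76 with a pseudocount of 1. The size of the fold thus rests on the pseudocount, since Csf1r was below the array's median on all 4 TA_fiber arrays, with a mean deposited intensity of 132 in EOM_fiber and 18.1 in TA_fiber.

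Cd163 had intensities of 116, 637, 348 and 215 in EOM_fiber, against 63.6, 117, 29.7 and 86.2 in TA_fiber. The groups touched through rat 15, whose EOM_fiber array lay below the highest TA_fiber array, that of rat 25. The log2 difference was 1.66 ± 0.33 (SE, limma, n = 4 each, adjusted p = 0.0037), and within rats it was 0.51, 2.23, 2.90 and 1.02. Mrc1 had intensities of 156, 484, 459.7 and 374 in EOM_fiber, against 125, 125, 63.1 and 153 in TA_fiber. Here too the rats 25, 27 and 29 carried the difference, with 1.75, 2.41 and 1.12 on the log2 scale, and rat 15 gave 0.13. The fit gave 1.35 ± 0.30 (SE, limma, n = 4 each, adjusted p = 0.0071). The call for Mrc1 was lost without rat 25 (1.22, adjusted p = 0.051) or rat 27 (0.996, adjusted p = 0.0702), and in a fit on the 8 arrays of these groups alone (adjusted p = 0.0617). Without the 3 arrays of highest median, which include EOM_fiber 15, all of Csf1r, Cd163 and Mrc1 remained past the threshold, at 1.71, 2.04 and 1.66.

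Cd68 had intensities of 44.7, 90.7, 103 and 85.4 in EOM_fiber, against 86.6, 38.1, 24.3 and 21.5 in TA_fiber. The groups overlapped, and rat 15 ran against the other rats, with a log2 difference of -1.16, while rats 25, 27 and 29 gave 1.12, 1.45 and 1.18. The fitted difference was 0.65 ± 0.49 (SE, limma, n = 4 each, adjusted p = 0.421), and without TA_fiber 15 it was 1.30 (adjusted p = 0.0417). Ptprc had intensities of 28.9, 44.5, 98.2 and 82.6 in EOM_fiber, against 28.8, 10.8, 34.5 and 42.0 in TA_fiber. Its arrays overlapped, and the difference of 0.64 had a 95% interval of -0.06 to 1.34 (limma, adjusted p = 0.211). Cd74 had intensities of 294, 119, 366 and 248 in EOM_fiber, against 176, 168, 182 and 381 in TA_fiber. It was higher in EOM_fiber in rats 15 and 27 and lower there in rats 25 and 29, and its difference of 0.06 had an interval of -0.48 to 0.59, which leaves out the sizes measured for Csf1r, Cd163 and Mrc1.

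**Figure D2:**
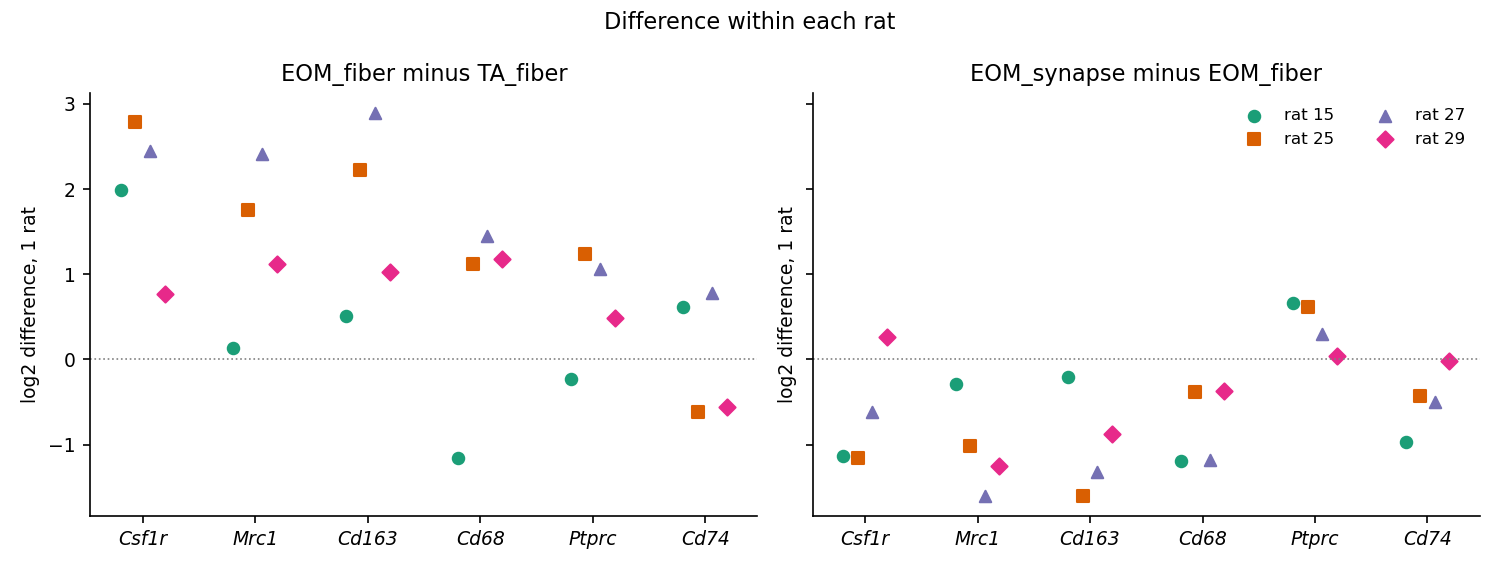
Log2 difference within each rat for the 6 genes, EOM_fiber minus TA_fiber on the left and EOM_synapse minus EOM_fiber on the right, with a marker for each rat. In the left panel all 4 rats are above 0 for Csf1r, Mrc1 and Cd163, and rat 15 is the lowest of the 4 rats for Mrc1, Cd163, Cd68 and Ptprc. In the right panel all 4 rats are below 0 for Mrc1, Cd163, Cd68 and Cd74.

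Some other genes listed for resident macrophages were also higher in EOM_fiber. Of 15 tested markers of resident and scavenger macrophages, 7 were higher in EOM_fiber and 0 lower, with a median difference of 1.06. Among the 13 of them other than Mrc1 and Cd163, 5 were higher: C1qa (1.79 ± 0.39), a chain of complement C1q; Lyve1 (1.55 ± 0.32), a hyaluronan receptor also found on lymphatic vessels; Stab1 (1.37 ± 0.34), a scavenger receptor also found on some endothelium; F13a1 (1.22 ± 0.28), a subunit of clotting factor XIII; and Selenop (1.01 ± 0.28), a selenium carrier that many cells make (SE, limma, adjusted p = 0.005 to 0.0243). Folr2 and Gas6, on the same list, differed by -0.02 and -0.08. Across alternatives the number of those 13 genes that were higher ran over 1 to 7, and 1 was the count without rat 25. The call for Lyve1 held in all 24 alternatives run for these genes. The calls for C1qa and F13a1 were lost without rat 25, and that for F13a1 also in the fit on the arrays of the groups compared. The call for Stab1 was lost in 5 alternatives, among them without EOM_fiber 27 or TA_fiber 25. The call for Selenop was lost in 13, among them without any 1 of the fibre arrays of rats 25, 27 and 29, and the mean of its probe sets differed by 0.19, so its probe sets disagree.

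Pan-macrophage and monocyte markers were higher for 3 of 13 genes and lower for 0, with a median of 0.62. They were Cybb (1.52 ± 0.40), the catalytic subunit of the phagocyte oxidase, Ctss (1.45 ± 0.28), a cysteine protease of antigen-presenting cells, and Lyz2 (1.21 ± 0.29), lysozyme (SE, limma, adjusted p = 0.0035 to 0.0192). Ctss kept its call in every alternative. Lyz2 lost its call in 2, without rat 25 and median centred. Cybb lost its call in 5: without rat 25, rat 27 or EOM_fiber 25, with a pseudocount of 1, and with only the arrays of the groups compared. Adgre1, which encodes the macrophage antigen F4/80 in mice, differed by 0.90 (limma, adjusted p = 0.135) and was higher in EOM_fiber in 4 of 4 rats. Lysosomal genes were higher for 5 of 18 and lower for 1. Npc2 (1.58 ± 0.23), Ctsh (1.30 ± 0.21) and Ctsb (1.15 ± 0.19) led the rise, and Ctsz fell by 1.002 (limma, adjusted p = 0.0257), a call lost in 11 alternatives, among them without TA_fiber 15, TA_fiber 25, TA_fiber 29 or EOM_fiber 29. These lysosomal genes are used by most cell types, the muscle fibre included.

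The list of MHC class II presentation, which also holds surface partners of CD74, gave no rise past the threshold. Of 12 tested, 0 were higher and 1 was lower in EOM_fiber, with a median of -0.08. RT1-Ba and RT1-Da, which encode chains of the rat's class II molecules, differed by 0.07 (limma, adjusted p = 0.915) and 0.54 (adjusted p = 0.402). The gene called was Cxcr4, listed as a partner of CD74 at the cell surface, at -0.85 ± 0.25 (SE, limma, adjusted p = 0.0323, 3 of 4 rats), and its call was lost in 15 of 24 alternatives. Pan-leukocyte genes and partners of CD45 gave 0 calls among 11, with a median of 0.55, and 9 of the 11 were above 0, Coro1a most (1.15, limma, adjusted p = 0.0687).

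The growth factors that CSF1R binds did not pass the test. Csf1 had mean log2 levels of 8.27 in EOM_fiber and 8.27 in TA_fiber (difference -0.00 ± 0.34, SE, limma, adjusted p = 0.999), and Il34 had 6.09 in EOM_fiber and 6.02 in TA_fiber (0.07 ± 0.24, adjusted p = 0.876). Of 10 tested genes on the list of the receptor and its regulators, Csf1r was the 1 that was higher. Cebpb, which encodes a transcription factor active in macrophages and in many other cells, was lower by 1.66 ± 0.31 on the log2 scale (difference -1.66, limma, adjusted p = 0.0025).

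**Figure D3:**
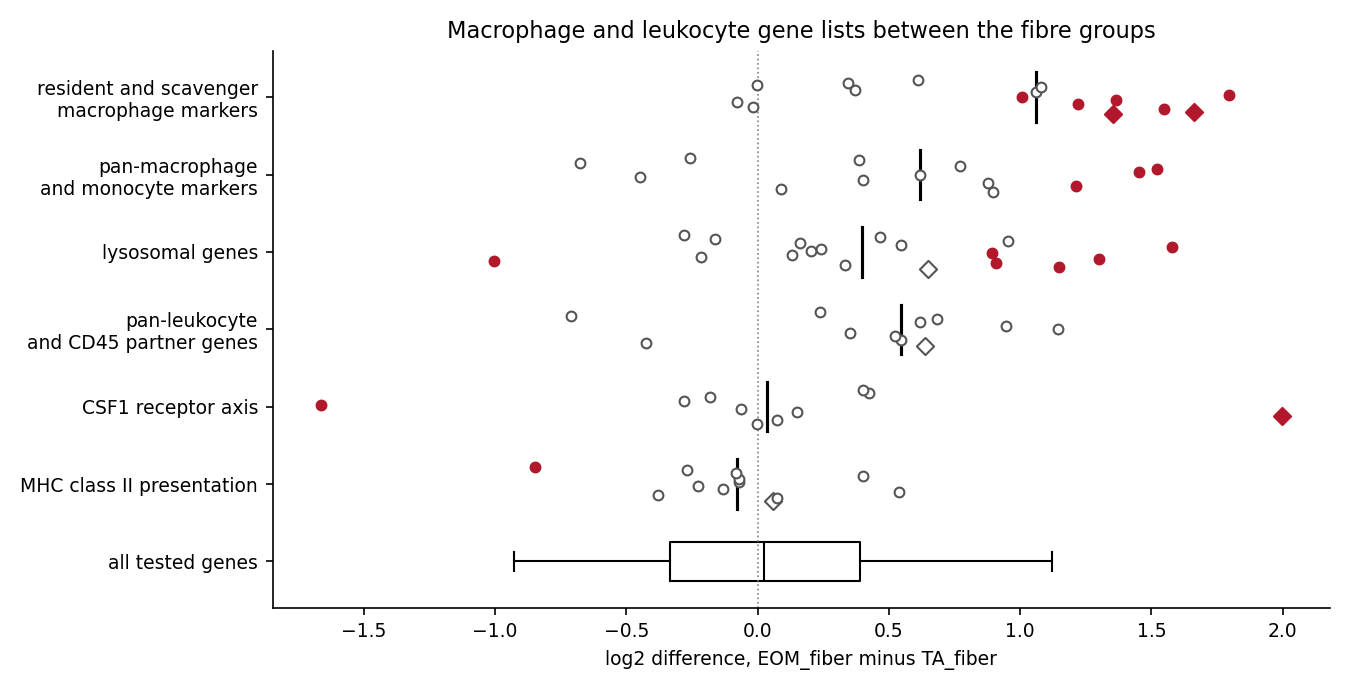
Log2 difference, EOM_fiber minus TA_fiber, of each tested gene on 6 lists, with filled red points for an adjusted p under 0.05, diamonds for Csf1r, Mrc1, Cd163, Cd68, Ptprc and Cd74, and a bar at each list's median. The box shows all 10416 tested genes with whiskers at the 5th and 95th percentiles. Resident macrophage markers have a median of 1.06, and the list of MHC class II presentation has one of -0.08.

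Markers of other cells of the connective tissue were also compared between the fibre groups. Fibroblast and matrix markers were higher in EOM_fiber for 10 of 10 tested genes, with a median of 1.61. The 12 of these markers on the array, tested or not, summed to 9011 to 27401 in EOM_fiber, against 2716 to 8411 in TA_fiber. Endothelial markers were higher for 3 of 13 and the other 10 did not pass, with a median of 0.61, and summed to 4054 to 5553 in EOM_fiber, against 2495 to 3198 in TA_fiber. Schwann cell markers were higher for 2 of 9 and the other 7 did not pass, and they summed to 1880 to 2724 in EOM_fiber, against 590.4 to 791.6 in TA_fiber. Of 8 smooth muscle and pericyte markers 0 passed in limma, with a median of 0.05, and the list summed to 1621 to 3161 in EOM_fiber, against 2159.7 to 3692 in TA_fiber. The 6 macrophage and immune genes summed to 798.7 to 1529 in EOM_fiber, against 342.5 to 713.7 in TA_fiber. The part of these cells, and of the lower actin ratio in EOM_fiber, in the differences of Csf1r, Cd163 and Mrc1 was not tested.

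At the junction none of the 6 genes passed the test between the muscles. Between EOM_synapse and TA_synapse 0 of the 6 passed with limma, against 16.4% of all genes, 7.82% as higher and 8.61% as lower in EOM_synapse. At an unadjusted p under 0.05, 1 of the 6 passed, against 30.3% of all genes. Csf1r had intensities of 62.2, 59.4, 80.7 and 102 in EOM_synapse, against 54.6, 56.1, 16.4 and 91.0 in TA_synapse. The arrays overlapped, with TA_synapse 27 far below the rest, and the difference was 0.39 with a 95% interval of -0.36 to 1.13 (limma, adjusted p = 0.496). Mrc1 had 128, 243, 151 and 162 in EOM_synapse, against 137, 146, 148 and 136 in TA_synapse. Mrc1 levels in TA_synapse were within a narrow range, EOM_synapse 25 alone stood clearly above it, and the difference was 0.11 (-0.53 to 0.74, adjusted p = 0.85). Cd163 had 94.4, 210.3, 139 and 122 in EOM_synapse, against 93.4, 152, 87.8 and 77.0 in TA_synapse, and differed by 0.31 (-0.39 to 1.01, limma, adjusted p = 0.575).

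That 1 gene was Cd74. It had intensities of 157, 87.3, 272 and 268 in EOM_synapse, against 275, 169, 275 and 321 in TA_synapse, lower at the EOM junction in each of 4 rats. The difference was -0.58 ± 0.25 (SE, limma, n = 4 each, adjusted p = 0.133), so it did not pass over all genes. Ptprc had 44.9, 87.9, 132 and 88.7 in EOM_synapse, against 55.1, 32.3, 32.4 and 52.5 in TA_synapse, with a difference of 0.70 and an interval of -0.00 to 1.40 (limma, adjusted p = 0.166). Cd68 had 6.53, 67.5, 29.2 and 64.2 in EOM_synapse, against 10.4, 6.96, 82.9 and 63.3 in TA_synapse, and these wide ranges overlapped.

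Macrophage lists gave 0 calls between the junction groups, 0 of 15 for resident and 0 of 13 for pan-macrophage markers, with medians of 0.31 and 0.08. Lysosomal genes were higher in EOM_synapse for 4 of 18, led by Npc2 (1.88 ± 0.23, SE, limma, adjusted p = 1e-04), an intracellular cholesterol carrier, which was higher in this comparison under every alternative. The count was 1 to 3 with an array or rat left out. Ctsb lost its call in 11 of 24 alternatives, among them without any 1 of EOM_synapse 25, EOM_synapse 27, EOM_synapse 29, TA_synapse 15, TA_synapse 27 and TA_synapse 29. Ctsl lost its call in 7, among them without EOM_synapse 15 or TA_synapse 15, and Ctsh in 5, among them without EOM_synapse 25 or TA_synapse 25. Runx1, on the list of the receptor's regulators and also expressed in muscle fibres, was lower in EOM_synapse by 1.42 ± 0.29 (difference -1.42, limma, adjusted p = 0.0043). Of 11 pan-leukocyte genes and partners of CD45, 1 was higher in EOM_synapse, Fyn, and its call was lost in 10 of 24 alternatives.

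**Figure D4:**
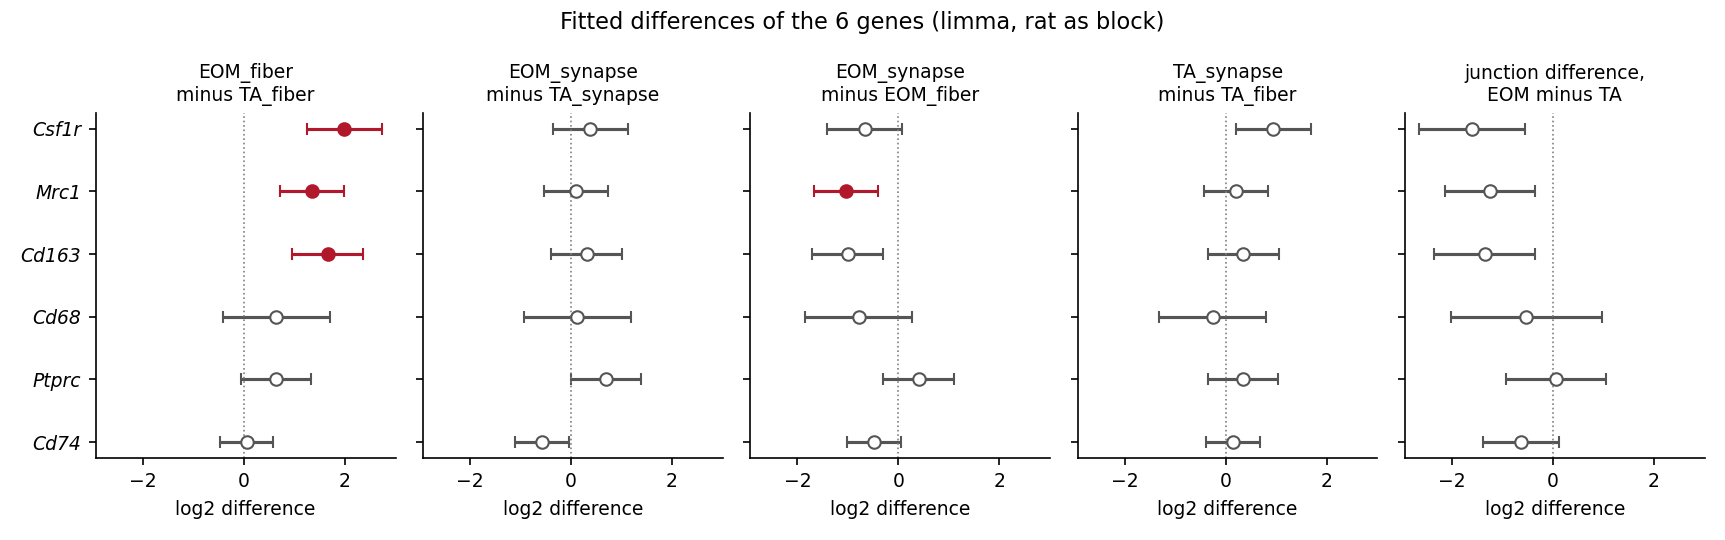
Fitted log2 differences of the 6 genes in the 5 comparisons, with 95% confidence intervals from limma (n = 4 arrays a group). Filled red points have an adjusted p under 0.05: Csf1r, Mrc1 and Cd163 for EOM_fiber minus TA_fiber and Mrc1 for EOM_synapse minus EOM_fiber. The last panel sets the synapse-to-fiber difference of EOM against that of TA.

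Within eye muscle, Mrc1 fell to 0.485 of its EOM_fiber level in EOM_synapse, and the other 5 genes did not pass. Of all genes, 10.1% passed in either direction, 5.62% as higher and 4.51% as lower at the junction. The median of the 6 genes was -0.72, beside -0.04 for all genes. From the intensities already given, Mrc1 was lower in EOM_synapse than in EOM_fiber in each rat, with log2 differences of -0.29, -1.02, -1.61 and -1.26 and a fitted difference of -1.04 ± 0.30 (SE, limma, n = 4 each, adjusted p = 0.0392). That call was close to the threshold: it was lost without the rat block (adjusted p = 0.0528), without any 1 of EOM_fiber 25, EOM_fiber 27, EOM_fiber 29 and the 4 EOM_synapse arrays (adjusted p = 0.0601 to 0.12), and in 15 of 25 alternatives in all. Cd163 differed by -1.003 ± 0.33 (SE, limma, adjusted p = 0.0695), again lower in 4 of 4 rats, and it passed without EOM_fiber 15 (-1.36, adjusted p = 0.0142).

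Csf1r differed by -0.66 between EOM_synapse and EOM_fiber (interval -1.41 to 0.08, limma, adjusted p = 0.255), lower in 3 rats and higher in rat 29. It passed narrowly without EOM_fiber 29, at -1.05. Cd68 and Cd74 were lower in EOM_synapse in all 4 rats, by a fitted -0.78 (adjusted p = 0.355) and -0.48 (adjusted p = 0.251). Ptprc was the member above 0, at 0.41 (interval -0.29 to 1.10, limma, adjusted p = 0.483), and it was higher in EOM_synapse in all 4 rats. Of 15 resident macrophage markers, 3 were lower at the EOM junction, Stab1 (-1.22 ± 0.34), Mrc1 and F13a1 (-0.996 ± 0.28, SE, limma, adjusted p = 0.0374 to 0.0392), and 0 were higher. Stab1 and F13a1 each lost the call in 14 of 24 alternatives, among them without the rat block and without any 1 of EOM_fiber 25, EOM_fiber 27, EOM_fiber 29 and the 4 EOM_synapse arrays. Of 13 endothelial markers 6 were lower and 1 higher in EOM_synapse, while Schwann cell markers were higher for 6 of 9. Fibroblast and matrix markers were higher there for 4 of 10 and lower for 0, with a median of 0.79. The part of these cells in the fall of Mrc1 was not tested.

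On the list of MHC class II presentation, 2 of 12 genes were higher in EOM_synapse and 1 was lower. Those higher were Cd44 (1.29 ± 0.21) and Cxcr4 (1.10 ± 0.25), which encode surface partners of CD74 that many cells carry and are not class II genes. The 1 lower was RT1-DMb, whose product helps class II molecules load peptides (-0.89 ± 0.24, SE, limma, adjusted p = 0.0016 to 0.0314). The class II chain genes RT1-Ba, RT1-Bb, RT1-Da and RT1-Db1 differed by -0.36, -0.54, -0.07 and -0.55 and did not pass. The call for RT1-DMb was lost in 14 of 24 alternatives, among them without EOM_fiber 15 or EOM_fiber 29 or any 1 EOM_synapse array. That for Cxcr4 was lost in 5, among them without EOM_synapse 15 and without rat 15, 25 or 29. Ctsh (1.15 ± 0.21), Hexa (1.14 ± 0.20) and Lamp2 (0.91 ± 0.19), lysosomal genes not specific to macrophages, were higher at the EOM junction (limma, adjusted p = 0.0024 to 0.008). For Lamp2 the mean of its probe sets gave -0.27 in place of a rise, so its probe sets disagree. Cd44, Ctsh, Hexa and Lamp2 were also higher at the TA junction, as given below. Cbl, on the list of the receptor's regulators, was higher in EOM_synapse by 0.93 ± 0.25 (SE, limma, adjusted p = 0.0317), a call lost in 11 of 24 alternatives. Of 11 pan-leukocyte genes and partners of CD45, 1 was higher in EOM_synapse, Fyn, with its call lost in 14 of 24 alternatives.

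Within leg muscle none of the 6 genes passed between TA_synapse and TA_fiber, where 10.2% of all genes did, 6.7% as higher and 3.53% as lower, and 1 of the 6 had an unadjusted p under 0.05, against 23.5% of all genes. That was Csf1r, with 54.6, 56.1, 16.4 and 91.0 in TA_synapse, against 25.8, 8.06, 8.63 and 29.8 in TA_fiber. It was higher in TA_synapse in each rat, the groups overlapped through TA_synapse 27, and the difference was 0.95 ± 0.35 (SE, limma, n = 4 each, adjusted p = 0.106). Without TA_synapse 27 it was 1.30 and passed (adjusted p = 0.0248). The other 5 genes ran over -0.25 for Cd68 to 0.35 for Cd163, and 0 of 28 tested genes on the resident and pan-macrophage lists passed. Lysosomal genes were higher in TA_synapse for 4 of 18 and lower for 0. They were Ctsh (1.60 ± 0.21), Hexa (0.83 ± 0.20), Cd63 (0.75 ± 0.20) and Lamp2 (0.65 ± 0.19, SE, limma, adjusted p = 0.0002 to 0.0438). Cd44 was higher by 0.85 ± 0.21 (SE, limma, adjusted p = 0.0194). Ctsh kept its call in every alternative, and Hexa, Cd63, Lamp2 and Cd44 lost theirs in 5, 14, 15 and 9 of 24. The difference of Lamp2 ran over -0.07 to 0.82 in these alternatives, and its call was lost with the mean of its probe sets here too. Runx1 was higher in TA_synapse by 1.54 ± 0.29 (SE, limma, adjusted p = 0.0037), and Cebpb was lower by 1.17 (difference -1.17, adjusted p = 0.0268), a call lost in 10 of 24 alternatives, among them without TA_fiber 15, TA_fiber 27, TA_fiber 29, TA_synapse 27 or TA_synapse 29. Cbl was higher in TA_synapse by 0.98 ± 0.25 (SE, limma, adjusted p = 0.0239), a call also lost in 10 of 24.

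Whether the synapse-to-fiber difference was unlike in EOM and TA was tested as an interaction, EOM first. Of all genes 0.922% passed, 0.259% as higher and 0.662% as lower, and 0 of the 6 did with limma, while 3 had an unadjusted p under 0.05, against 10.7% of all genes. These were Csf1r (-1.61 ± 0.49, adjusted p = 0.176), Cd163 (-1.35 ± 0.46, adjusted p = 0.253) and Mrc1 (-1.25 ± 0.42, adjusted p = 0.242; SE, limma), all negative in 4 of 4 rats. So the fibre and junction comparisons of the muscles, which reached the threshold for these genes only away from the junction, were not shown to differ over all genes. Csf1r passed without EOM_fiber 29 (-1.997, adjusted p = 0.0423) and Mrc1 without EOM_fiber 15 (-1.59, adjusted p = 0.0491). Ptprc gave 0.06 with an interval of -0.93 to 1.05.

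Ordered by mean log2 level, Csf1r ran over 7.12 ± 0.39 in EOM_fiber, 6.46 ± 0.30 in EOM_synapse, 6.07 ± 0.77 in TA_synapse and 5.12 ± 0.57 in TA_fiber (SD, n = 4 each). No pair of neighbours in that order passed the test, while its ends did. Mrc1 had the same order, with 8.46 ± 0.75, 7.42 ± 0.37, 7.31 ± 0.07 and 7.11 ± 0.43, and so did Cd163, with 8.16 ± 1.03, 7.16 ± 0.44, 6.85 ± 0.39 and 6.50 ± 0.66. For Mrc1 the step between EOM_synapse and EOM_fiber passed as given above, and for both genes the lower 3 groups lay within their spread. Ptprc ran over 6.58 ± 0.49 in EOM_synapse, 6.17 ± 0.69 in EOM_fiber, 5.88 ± 0.38 in TA_synapse and 5.53 ± 0.57 in TA_fiber. Its steps within EOM and within TA did not pass. Cd74 ran over 8.09 ± 0.37 in TA_synapse, 7.99 ± 0.68 in EOM_fiber, 7.93 ± 0.47 in TA_fiber and 7.51 ± 0.70 in EOM_synapse, and Cd68 over 6.46 ± 0.57 in EOM_fiber, 5.81 ± 0.65 in TA_fiber, 5.68 ± 0.87 in EOM_synapse and 5.56 ± 1.01 in TA_synapse. Pairs that share neither muscle nor position, EOM_synapse with TA_fiber and EOM_fiber with TA_synapse, were not compared by a test.

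The second Ptprc probe set was dim. Its intensities ran over 0.675 to 32.7, it exceeded the array's median on 0 of 16 arrays, and it followed the first with a Pearson r of 0.10 over the 16 arrays, so the values above describe the first probe set.

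Among themselves, Mrc1 and Cd163 formed the closest pair, with a Pearson r of 0.93 over the 16 arrays. With the group means removed their r was 0.86, whereas that of Csf1r with Mrc1 was 0.57 over the arrays and -0.02 with group means removed. Csf1r thus shared with Mrc1 the order of the groups, while their deviations from the group means, taken over all groups, did not go together. EOM_fiber 15 was the highest of its group for Csf1r and the lowest for Mrc1 and Cd163. In TA_fiber the 2 genes ran more alike, and TA_fiber 29 was the highest of its group for both Csf1r and Mrc1. Cd74 followed none of the other 5 closely, with r of -0.27 to 0.09. The arrays share groups, rats and normalization, so these values describe the 16 arrays and carry no test.

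**Figure D5:**
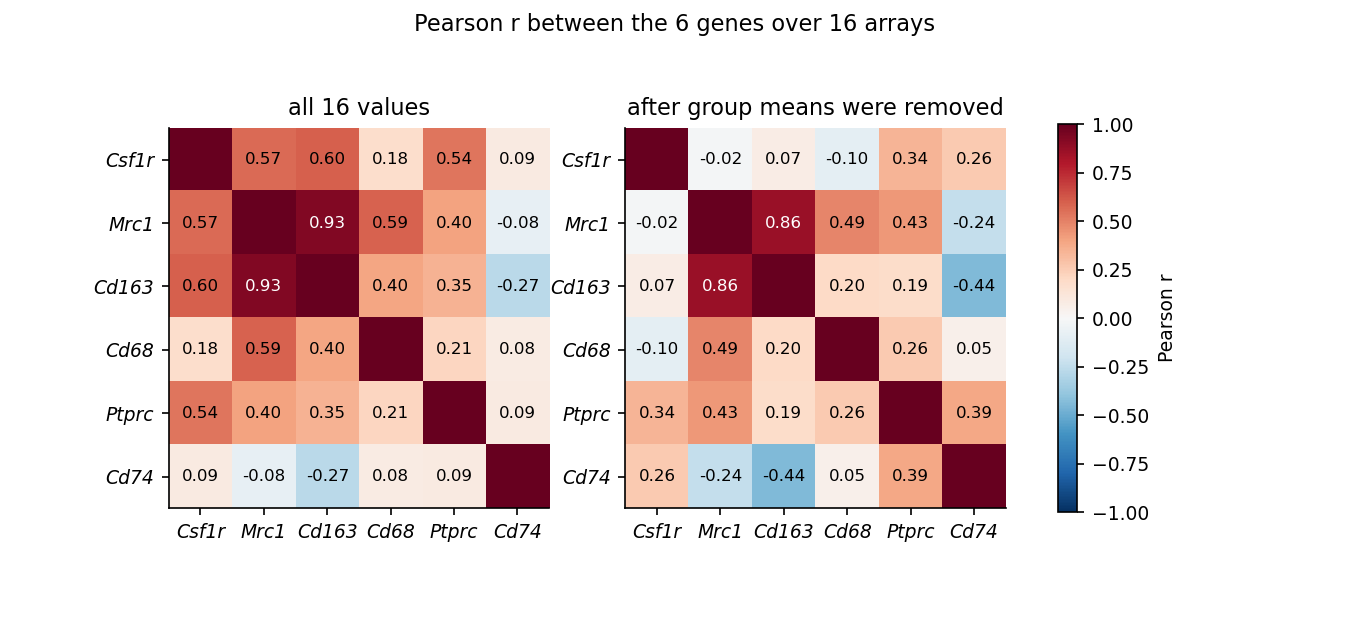
Pearson r between the log2 levels of the 6 genes over 16 arrays, on the left for the values as they are and on the right after each group's mean was removed. Mrc1 and Cd163 are at 0.93 and 0.86, and Cd74 is at or below 0.09 with each other gene on the left.

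Over all 10415 other tested genes, the 3 most like Mrc1 across the 16 arrays were Cd163, Stab1 (r = 0.86) and Chodl (0.84), and the 3 most like Cd163 were Mrc1, F13a1 (0.85) and Stab1 (0.82). The 3 most like Cd74 were RT1-Ba (0.82) and RT1-Db1 (0.80), which encode MHC class II chains, and Crabp2 (0.72), which encodes a retinoic acid binding protein. Csf1r was most like Ehd4 (0.91), Pltp (0.90) and Nucb1 (0.89), Ptprc most like Actg1 (0.88), Adcy6 (0.87) and Efhd1 (0.86), and Cd68 most like Lzts1 (0.82), Iqgap1 (0.79) and LOC100909729 (0.74). The scavenger receptor genes and Cd74 were thus closest to genes of the lists they were placed in, and Csf1r, Ptprc and Cd68 were not. These are the highest of 10415 values of r over 16 arrays that share groups and rats, and they are given as a description.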

How the data were processed

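Per the labels, 16 samples of rat muscle were hybridised to Affymetrix arrays after RNA had been amplified over a pair of cycles and 600 ng of amplified RNA taken forward. Each deposited value is the linear intensity of a probe set. The values show that the authors had scaled every array to 1 common mean, taken without the lowest and highest 2%. The program that summarised probes and the genome build are not given in the sources used here, and precision is limited by how many arrays there are.

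Values were computed as log2(intensity + 16) and quantile normalized, after 57 control probe sets were left out. Of the others, 20826 had 1 gene in the array's annotation, 436 several and 9780 none listed, with symbols updated through a RefSeq gene table. Probe sets brighter than the median of the array on 4 or more arrays were kept, and for each gene the one of highest mean was used, giving 10416 genes. The model, in limma 3.58.1 under R 4.3.3, had a term for each of 4 groups and a fixed term for the rat, with 9 residual and 4.58 prior degrees of freedom. P-values were adjusted by the Benjamini-Hochberg method over all genes in each of 5 contrasts. Steps were tested on simulated data.

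Each number in a title was taken to be an animal, since the design text names 4 rats and both muscles of each. Deviations from the group means correlated with a mean r of 0.112 across genes over 24 same-number pairs. Single pairs ran over -0.067 to 0.245, and 16 of the 24 were above 0.1. For 14 of 16 arrays, the mean r with arrays of other groups was highest for their own number. If they are not animals, the p-values measure only the spread between these samples. The 6 genes and the 20 other lists were chosen with earlier results of these data known. Named genes are the 6, up to 4 genes past the threshold of each macrophage, lysosomal, class II and leukocyte list in each contrast, the 3 genes most like each of the 6, and other list genes at or below the threshold chosen after their values were seen. Alternatives covered the block, the arrays in the fit, normalization, filter, pseudocount (1 and 64), probe set, prior, and leaving out each array and rat.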

Additional observations from a re-analysis of the deposited data

Results flagged for a closer look

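For each of the 7 probe sets and 4 groups, the most distant array was set against the spread of the other 3 with Dixon's criterion. Of 28 such groups 3 held an array apart, where chance alone would give about 1.4. Cd68 in TA_fiber 15 had a log2 level of 6.78, above the other TA_fiber arrays at 5.43 to 5.57. The negative difference of rat 15 for Cd68 rests on that array and on EOM_fiber 15. The latter was at 5.63, below the other EOM_fiber arrays at 6.64 to 6.88, though the criterion did not set it apart. Cd74 in TA_fiber 29 had a log2 level of 8.64, above the other TA_fiber arrays at 7.64 to 7.79. The dim second probe set of Ptprc in EOM_fiber 29 had a log2 level of 4.87, above the other EOM_fiber arrays at 4.29 to 4.33, all below their array's median.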

How the results depend on the processing

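Csf1r and Cd163 stayed past the threshold for EOM_fiber minus TA_fiber under all 25 alternatives, with differences of 1.16 to 2.76 and 1.25 to 2.06, and 3 of the 6 genes were called there under most of them, 2 to 4 with an array or rat left out. For EOM_synapse minus EOM_fiber 1 of the 6 was called, but 0 with no replicate block, as deposited, median centred, with no filter or with a pseudocount of 1, and 2 with the arrays of the groups compared, a pseudocount of 64, a prior with trend and robust fit or without the 3 arrays of highest median (an alternative chosen after seeing the data), and 0 to 2 with an array or rat left out. With an array or rat left out, 0 to 1 were called for TA_synapse minus TA_fiber and for the interaction, and 0 for EOM_synapse minus TA_synapse.

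Over all genes, 1620 were called for EOM_fiber minus TA_fiber, 732 with only the arrays of the groups compared and 976 to 1444 with an array or rat left out. For EOM_synapse minus TA_synapse 1712 were called, 1139 median centred and 947 to 1386 with an array or rat left out. For EOM_synapse minus EOM_fiber 1055 were called, 689 median centred and 491 to 951 with an array or rat left out, and for TA_synapse minus TA_fiber 1066 and 602 to 929. For the interaction 96 were called, 56 median centred, 46 with a pseudocount of 1, 218 with a pseudocount of 64, 205 with the trend and robust prior, and 23 to 105 with an array or rat left out. Median centring raised the share of higher calls in EOM_synapse minus EOM_fiber to 79.4%, against 55.5%, and the values as deposited shifted the median of all genes to 0.11 in EOM_fiber minus TA_fiber, against 0.03. The causes were not tested.

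Of the 789 values of single genes under alternatives, 729 kept direction and side of the threshold, 18 lost it, 11 gained it and 31 changed sign. The sign changes concerned differences that did not pass. Ptprc's interaction of 0.06 became -0.004 as deposited, -0.016 with a pseudocount of 1 and -0.26 without the 3 arrays of highest median. With an array or rat left out, the range was -0.25 to 0.35 for that interaction, -1.17 to 0.048 for Cd68's, -0.40 to 0.47 for Cd68 in EOM_synapse minus TA_synapse, -0.70 to 0.39 for Cd68 and -0.04 to 0.33 for Cd74 in TA_synapse minus TA_fiber, -0.18 to 0.28 for Cd74 in EOM_fiber minus TA_fiber, -0.023 to 0.57 for Csf1r and -0.05 to 0.23 for Mrc1 in EOM_synapse minus TA_synapse, and -0.046 to 0.41 for Mrc1 in TA_synapse minus TA_fiber. The fit on the arrays of the groups compared cannot give the interaction, and Csf1r, Cd68 and Ptprc fell below its filter for TA_synapse minus TA_fiber. Signal near background limits Csf1r, Cd68 and Ptprc in TA_fiber, and Cd68 in EOM_synapse and TA_synapse as well. Dropping the rat block changed the call of Mrc1 in EOM_synapse minus EOM_fiber (adjusted p = 0.0528) and no other call of the 6 genes.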
